A study of Mus musculus with 8 samples.

Results

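The probes described here lie on mouse chromosome 9 from 30 to 50 Mb (mm9 coordinates, as given by the scanner files). They are all probes whose coordinate starts in that stretch, apart from those of 10 gene names that the selection left out (Fxyd2, Fxyd6, Sorl1, Sc5d, Ets1, Tirap, Npsr1, Cd3e, Cd3g and Rps25). This gave 556 of 55681 non-control probes on the array, carrying 373 gene names. The stretch was selected on the log2 fold changes between the genotypes on these same arrays, so that every genotype difference below is a description of the selected probes and not a test of them.

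Prefrontal cortex RNA of 4 male α-Gal A(-/0) mice and of 4 male wildtype C57BL/6J mice, all 20 to 24 weeks old, was hybridized to one-color Agilent arrays, 1 per mouse. The α-Gal A(-/0) line, also on a C57BL/6 background, lacks the lysosomal enzyme α-galactosidase A and serves as a mouse model of Fabry disease, in which globotriaosylceramide accumulates. For the arrays the genotypes came from separate inbred colonies, so that on these arrays an effect of the genotype and a difference between the colonies cannot be told apart. For its RT-qPCR the study used a separate set of mice, with α-Gal A(-/0) mice backcrossed to wildtype to control for colony effects. All 8 arrays sat on 1 slide.

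This part of chromosome 9 holds a large cluster of olfactory receptor genes, whose products detect odorants in the nose, the apolipoprotein genes around Apoa1, and the genes of the CD3 chains of the T cell receptor. It also carries genes known for their roles in neurons, among them Drd2 (the D2 dopamine receptor), Bace1 (β-secretase), Ncam1 and Thy1 (adhesion molecules of the immunoglobulin superfamily) and Nrgn (neurogranin, a calmodulin-binding protein of the synapse). Further genes encode parts of the secretory pathway, of cilia and of RNA decay.

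Of the 556 probes, 270 passed the filter on signal, which asked for no uneven spot and for a reading well above background in every mouse of one genotype or the other, and 218 were not well above background on any array. Much of this gap came from the 106 olfactory receptor probes, of which 7 were tested and 91 were below background on all 8 arrays. The number of the 556 probes well above background ranged from 226 to 286 in α-Gal A(-/0) mice and from 282 to 309 in wildtype mice. The lowest count belonged to α-Gal A(-/0) replicate 2, which also had the lowest count over the whole array, 29943 against 35218 to 38240 on the others. Without this array 16 of the tested probes were called instead of 17, and 13 of those 17 were among them. The Gla probe, on the X chromosome, averaged 17.15 ± 0.03 (log2, SD, n = 4) on the α-Gal A(-/0) arrays against 17.09 ± 0.07 (SD, n = 4) on the wildtype arrays. Where this probe lies relative to the disrupted part of the gene is not given in the sources used here, so it does not check the labels, and each direction below rests on them.

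The sequences of the probes on which the account turns most are given here as deposited, 5′ to 3′, each 60 bases long. They show the exact stretches that were read where a transcript has no gene name, and where probes of 1 gene gave different answers. Capitals mark AATAAA, the hexamer that commonly precedes a polyadenylation site. It was found in 2 of the 17 called probes and in 11.8% of all tested probes of the array (its reverse complement TTTATT in 1 of the 17 and in 3.91%). LincRNA A and lincRNA B stand for the long intergenic RNA intervals that the array design calls chr9:41368823-41369514_F and chr9:41422319-41425855_F.
Clmp, the first of 2 probes, chr9:40590634-40590693, plus strand: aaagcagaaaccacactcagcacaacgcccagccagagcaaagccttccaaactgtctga
Clmp, the second of 2 probes, chr9:40591652-40591711, plus strand: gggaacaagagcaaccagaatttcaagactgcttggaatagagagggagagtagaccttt
TC1624885, chr9:41018853-41018912, plus strand: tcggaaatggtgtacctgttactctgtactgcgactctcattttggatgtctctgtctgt
lincRNA A, chr9:41369455-41369514, plus strand: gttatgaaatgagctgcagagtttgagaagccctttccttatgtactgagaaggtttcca
lincRNA B, chr9:41425723-41425782, plus strand: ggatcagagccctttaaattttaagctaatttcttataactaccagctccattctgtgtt
A_55_P2073134, chr9:42776227-42776286, plus strand: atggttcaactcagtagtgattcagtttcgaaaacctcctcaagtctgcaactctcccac
Nlrx1, the lower probe, chr9:44061455-44061514, minus strand: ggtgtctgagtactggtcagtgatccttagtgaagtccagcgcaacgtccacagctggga
Nlrx1, the other probe, chr9:44076064-44076123, minus strand: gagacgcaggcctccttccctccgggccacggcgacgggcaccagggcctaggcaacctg
C2cd2l, the lower probe, chr9:44117320-44117379, minus strand: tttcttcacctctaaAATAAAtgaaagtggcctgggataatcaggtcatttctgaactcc
C2cd2l, the other probe, chr9:44118315-44118374, minus strand: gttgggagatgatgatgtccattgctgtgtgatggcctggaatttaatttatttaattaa
Ift46, the higher probe, chr9:44598913-44598972, plus strand: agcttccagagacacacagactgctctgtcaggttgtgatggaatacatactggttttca
Ift46, the other probe, chr9:44600737-44600796, plus strand: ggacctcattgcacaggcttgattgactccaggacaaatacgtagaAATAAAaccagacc
Tmem25, chr9:44601943-44602002, minus strand: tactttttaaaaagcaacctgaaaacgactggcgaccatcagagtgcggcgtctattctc
No probe printed here shared a stretch of 20 bases, on either strand, with another probe of the array. Among the 270 tested probes 31 did so, and none of the called ones was among them.

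At an adjusted p under 0.05 (limma, Benjamini-Hochberg over all 34339 tested probes), 17 of the 270 probes were called, of which 5 had the higher signal in α-Gal A(-/0) mice and 12 the lower. Over the whole array 0.885% of tested probes were called, 0.306% higher and 0.58% lower, and nothing is read from this contrast because it selected the stretch. The count was 8 when the slide row of each array was fitted as well, 10 without wildtype replicate 3 and 9 without wildtype replicate 4. The signals of the genotypes did not overlap in 62 of the 270 (7.95% over the whole array). The criterion used in the study (an unadjusted limit of 0.01 and a fold change from 1.2 upwards) was met, with limma's p in place of that of the methods' own test, by 39 of the 270, 11 higher and 28 lower (3.46% over the whole array, 1.14% higher and 2.32% lower). With the methods' own test 23 of the 270 met it. The median log2 fold change was −0.01 over the 270 probes and −0.02 over all tested probes, whereas the median size of the change was 0.12 and 0.09. A change of at least 0.5 on the log2 scale in either direction was found in 35 of the 270 probes (13.0%) and in 4.66% of all tested probes.

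The differing probes were concentrated in the third of its 4 windows of 5 Mb. From 30 to 35 Mb 1 of 47 tested probes was called, from 35 to 40 Mb none of 58, from 40 to 45 Mb 16 of 115, and from 45 to 50 Mb none of 50. The counts past the study's criterion were 4, 4, 29 and 2. Non-overlapping genotypes were found in 19.1%, 10.3%, 33.9% and 16% of the tested probes of these 4 windows, against 13.6% and 6.67% in the 2 windows below the stretch and 6.9% and 3.67% in the 2 above it. The typical size of a difference changed little, with a median of 0.14 on the log2 scale from 40 to 45 Mb and of 0.12, 0.13 and 0.11 in the others. The standard deviation of the differences was 0.59 from 40 to 45 Mb and 0.23 to 0.28 in the other windows of the stretch. Among the largest differences from 40 to 45 Mb were those of TC1624885 and of a probe of Ift46. These passed the filter on signal through the wildtype arrays, so that the 0.59 rests in part on signals near background. Between the mice of 1 genotype the median SD was 0.13 from 40 to 45 Mb and 0.14 over all tested probes.

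**Figure D1:**
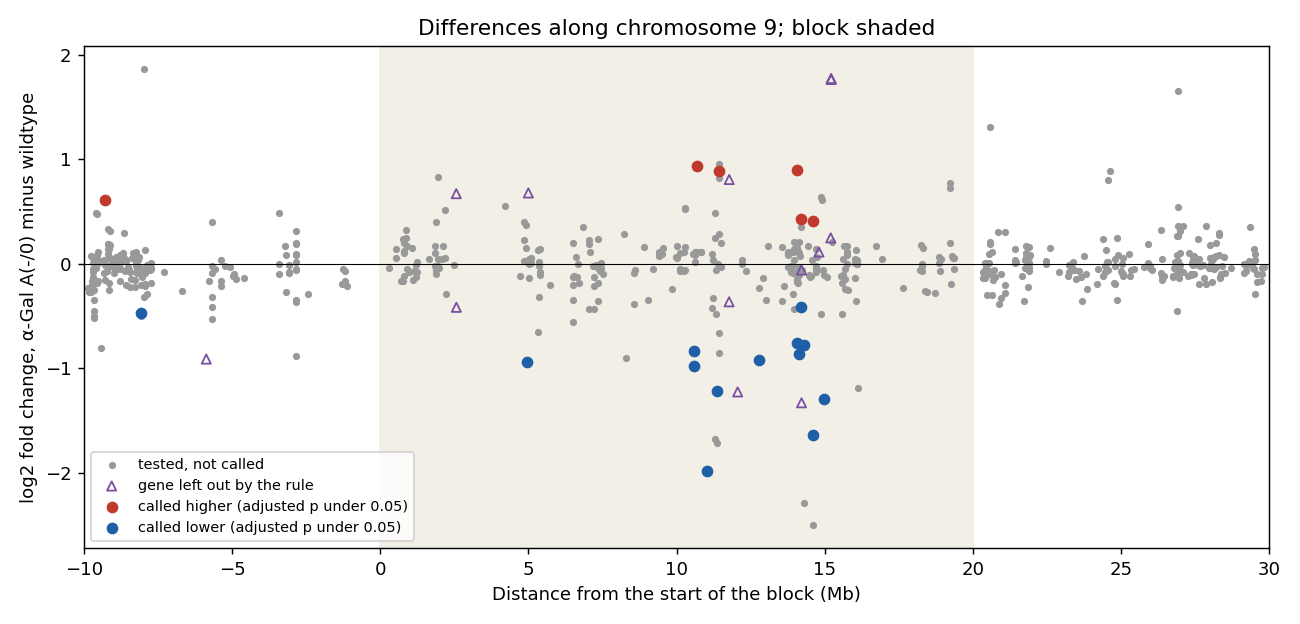
Log2 fold change (α-Gal A(-/0) minus wildtype) of every tested probe by distance in Mb from the start of the stretch, which is shaded; red and blue points were called higher and lower, gray points were not called and open triangles are genes left out of the selection. Of the 17 called points of the stretch, 16 lie from 10 to 15 Mb behind its start.

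The first called probe was that of 4930581F22Rik at 34938381 and the last that of Tmprss4 at 44980979. Both passed the filter on signal through the wildtype arrays, being well above background on 2 and 3 of 4 α-Gal A(-/0) arrays. Among probes well above background on all 8 arrays the calls ran from 40.591 to 44.602 Mb, so that the start at 4930581F22Rik, the gap behind it and the end at Tmprss4 rest on such probes. Before the first, 46 tested probes of the stretch were not called, and neither were the 50 after the last. The nearest tested probes of another gene were Dcps below, with a log2 fold change of 0.38 ± 0.08 (SE), and Il10ra above, with −0.12 ± 0.14 (SE). When called probes less than 1 Mb apart were joined, 2 runs arose. The first ran from Clmp to lincRNA B (chr9:40590634-41425782, 0.835 Mb) with 6 called of 28 tested probes, and the second from Pdzd3 to Tmprss4 (chr9:44055642-44981038, 0.925 Mb) with 9 of 45. The other 2 called probes, of 4930581F22Rik and A_55_P2073134, stood alone. The longest gap between called probes, 5.65 Mb from 4930581F22Rik to Clmp, contained 70 tested probes and all 106 olfactory receptor probes.

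With the left-out genes put back, 23 of 282 probes were called and the runs grew to 2.19 Mb (Clmp to A_55_P2073134) and 1.16 Mb (Pdzd3 to Fxyd2). The first call was then that of Ets1 at 32561826, 2.38 Mb below 4930581F22Rik. Without those genes, a joining distance of 2 Mb made 1 run of 4.39 Mb from Clmp to Tmprss4. Outside the stretch, the nearest called probes of genes that were not left out were those of Acp5 at 21931190 and Mapk6 at 75236077. Acp5 lay 13.0 Mb below the 4930581F22Rik probe. Mapk6 lay 30.3 Mb above the Tmprss4 probe, with 467 tested probes in between. Of the left-out genes, Npsr1 at 24120745, below the stretch, was also called (−0.91 ± 0.08, SE). At the limits of the selection itself, the nearest tested probes on either side were not called. The share of non-overlapping genotypes in the adjoining windows of 5 Mb was higher inside the limits, which a selection on these same differences favors. The share was 6.67% (2 of 30 tested probes) below and 19.1% (9 of 47) above 30 Mb. At 50 Mb it was 16% (8 of 50) below and 6.9% (6 of 87) above. The nearest tested probes outside and inside 30 Mb were Gm15520 at 28877727 (−0.21 ± 0.12, SE) and Snx19 at 30274163 (−0.04 ± 0.06), and those inside and outside 50 Mb were Gm11149 at 49380404 (−0.05 ± 0.12) and Pts at 50330140 (−0.08 ± 0.08).

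**Figure D2:**
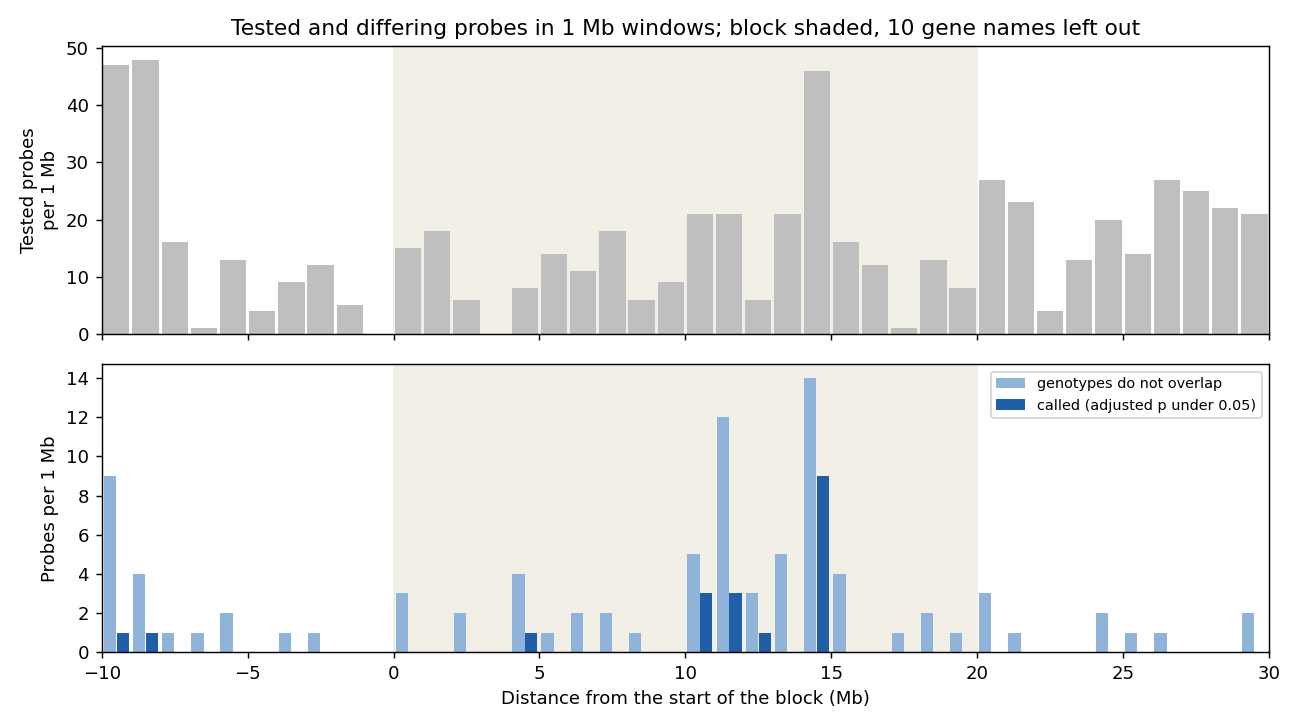
Number of tested probes (upper panel) and of probes with non-overlapping genotypes or called (lower panel) in windows of 1 Mb, by distance from the start of the shaded stretch, without the 10 gene names left out. The window from 14 to 15 Mb held 9 called of 46 tested probes, and the windows from 10 to 12 Mb held 3 of 21 each.

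Within the runs, called genes alternated with genes whose changes were near 0. From Pdzd3 to Tmprss4, the 36 probes that were not called had a median size of change of 0.11. Of these 36, 28 had a log2 fold change within 0.2 of 0. These included Abcg4 (a sterol transporter), Hinfp (a transcription factor of histone genes), Dpagt1 (the first enzyme of N-glycan assembly), H2afx (a histone variant of DNA repair), Vps11 (vesicle tethering), Arcn1 (a coat protein of vesicles) and 6 probes of Atp5l (a subunit of ATP synthase, −0.08 to 0.15). From Clmp to lincRNA B, the median size over all 22 probes not called was 0.27, and 11 of them nevertheless had non-overlapping genotypes.

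**Figure D3:**
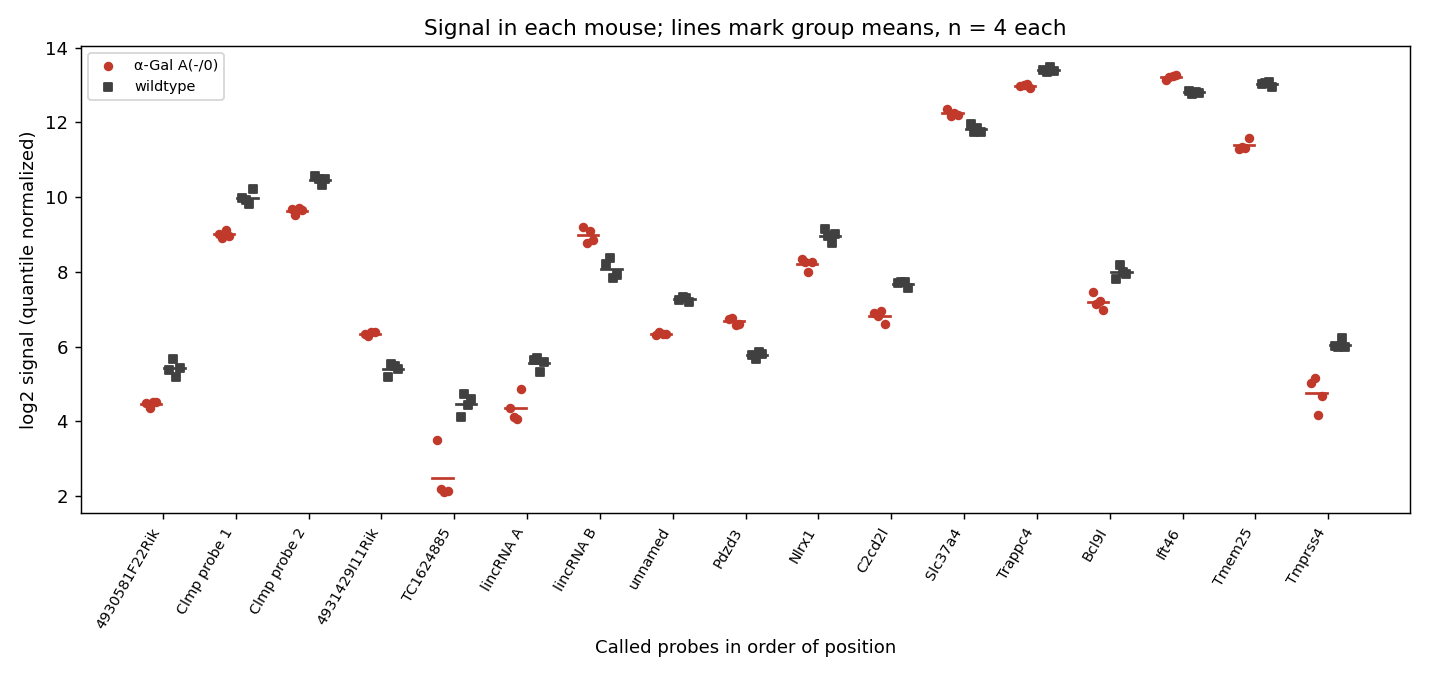
Log2 signal of the 17 called probes in each mouse, in order of position (red circles, α-Gal A(-/0); dark squares, wildtype; lines, group means, n = 4 each). The circles and squares of each probe occupy separate ranges, and 5 probes are higher in α-Gal A(-/0) mice.

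Adhesion and guidance proteins of the immunoglobulin superfamily had 28 tested probes of 18 genes. Of these probes 3 were called, all lower, namely both of Clmp and that of Tmem25 (0.58% called lower over the array). The median log2 fold change was −0.07 (−0.02 over all tested probes). Tmem25, a membrane protein of this superfamily, had the largest log2 change among the called probes that were well above background on all arrays. Its signals were 11.30, 11.35, 11.32 and 11.59 in α-Gal A(-/0) mice and 13.03, 13.06, 13.07 and 12.95 in wildtype mice. The difference of −1.64 ± 0.08 (SE) is a 3.11-fold lower signal, the genotypes did not overlap, and the call was kept under all 17 alternative settings. In the paper's RT-qPCR on backcrossed mice, however, Tmem25 was not significantly lower.

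Clmp, a cell adhesion molecule of tight junctions that opens the first run, was lower at both its probes, which lie 1018 bases apart. The first gave 9.01, 8.89, 9.13 and 8.96 in α-Gal A(-/0) mice and 9.97, 9.93, 9.80 and 10.22 in wildtype mice. The second gave 9.68, 9.51, 9.70 and 9.65 against 10.56, 10.50, 10.34 and 10.48. The changes were −0.98 ± 0.10 and −0.83 ± 0.07 (SE), and no α-Gal A(-/0) mouse reached the lowest wildtype mouse at either probe. Of the others, Vsig2 met the study's criterion (−0.36 ± 0.07) at 1 of its 2 probes, and so did Robo3, a receptor for axon guidance at the midline, at 1 of 2 (−0.44 ± 0.12), as did Mpzl3 (−0.48 ± 0.12). Amica1, an adhesion molecule of leukocytes, met it in the opposite direction (0.61 ± 0.14).

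Among the genes of the secretory pathway, 2 neighbors were called in opposite directions. Slc37a4, which carries glucose 6-phosphate into the endoplasmic reticulum, had signals of 12.36, 12.18, 12.26 and 12.20 in α-Gal A(-/0) mice and of 11.97, 11.74, 11.85 and 11.76 in wildtype mice (0.43 ± 0.07, SE). Trappc4, a subunit of a tethering complex of Golgi transport, had 12.99, 13.00, 13.02 and 12.93 against 13.40, 13.34, 13.48 and 13.36 (−0.41 ± 0.05, SE). Their probes lie 872 bases apart on opposite strands, and the probes of both genes separated the genotypes without overlap. The call for Slc37a4 was kept under 5 of 17 settings and that for Trappc4 under 13. The whole list had 16 tested probes of 12 genes with a median of 0.02, and the other 14 were not called.

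The second run began with another such pair. Pdzd3, a scaffold protein with PDZ domains, had 6.75, 6.77, 6.59 and 6.60 in α-Gal A(-/0) mice and 5.78, 5.66, 5.86 and 5.79 in wildtype mice, a log2 difference of 0.90 ± 0.07 (SE). Nlrx1, a NOD-like receptor located at mitochondria, had 7.99 to 8.34 against 8.78 to 9.13, a difference of −0.76 ± 0.10 (SE). These probes are 5813 bases apart on the same strand. Across the stretch, 7 neighboring pairs of probes of different names lay within 50 kb of each other with each probe called or past the study's criterion. They include a pair from the opposite strands of a single lincRNA interval. In 5 of these pairs the directions were opposite, and in 2 of the 7 both probes were called. Some of the others, among them Dcps with 4930581F22Rik, include a signal near background. The matching share over the array was not counted.

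Cilia and cytoskeleton genes, with 14 tested probes and 1 call, included one whose probes differed. Ift46, a subunit of the intraflagellar transport machinery that builds cilia, was called higher at a probe that gave 13.13, 13.21, 13.24 and 13.26 in α-Gal A(-/0) mice and 12.84, 12.76, 12.80 and 12.80 in wildtype mice (0.41 ± 0.05, SE). Its other probe, 1824 bases further along and 1206 bases from the Tmem25 probe on the opposite strand, gave 4.41, 2.46, 4.22 and 5.08 against 6.41, 6.39, 6.71 and 6.67. That is a difference of −2.50 ± 0.49 (SE), which was not called, and the probe was well above background on 1 of 4 α-Gal A(-/0) arrays and on all 4 wildtype arrays. It passed the filter through the wildtype arrays, and the size of its difference is therefore uncertain. Cep164, a centriole protein needed for cilia and for the response to DNA damage, was past the study's criterion at 1 of 3 probes (−0.48 ± 0.10), with −0.18 and 0.05 at the others.

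**Figure D4:**
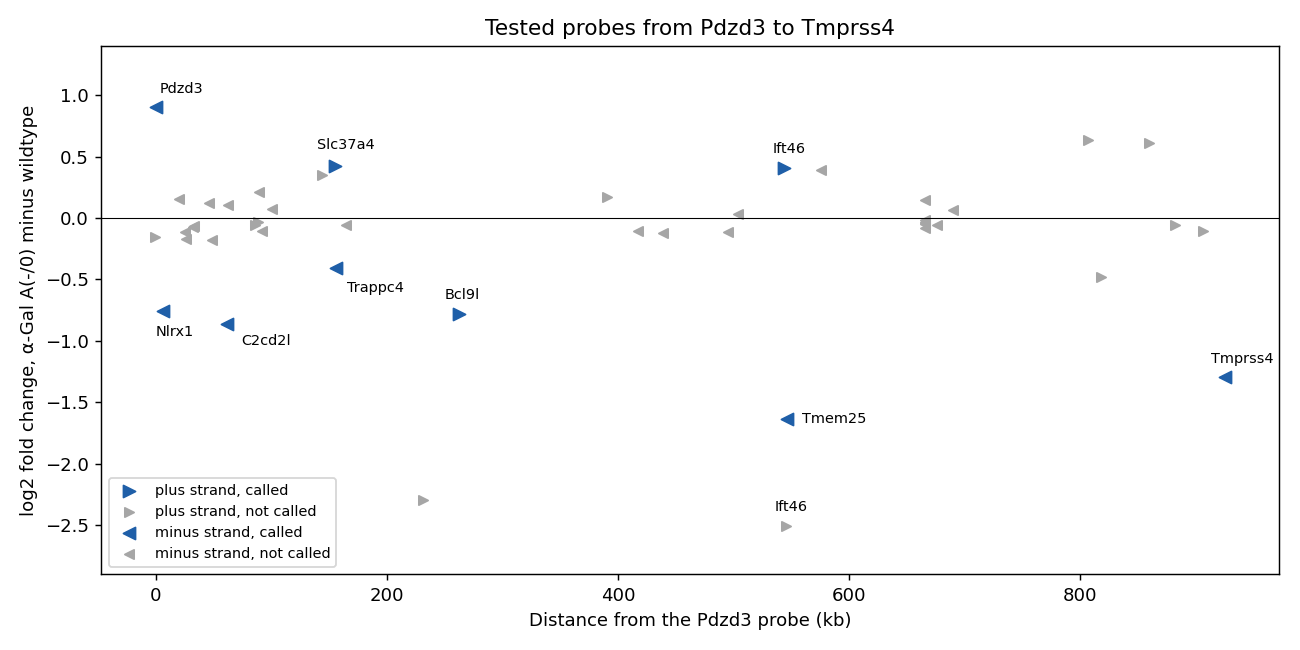
Log2 fold change of the tested probes from Pdzd3 to Tmprss4 by distance in kb from the Pdzd3 probe; triangles pointing right are on the plus strand and those pointing left on the minus strand, blue when called. Called probes lie on both sides of 0, and most gray probes lie near 0.

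Probes of 1 gene disagreed in other cases too. The lower probe of Nlrx1 is 14609 bases from a second one with 0.16 ± 0.08 (SE), and the genotypes of the second overlapped. C2cd2l, a lipid transfer protein of endoplasmic reticulum and plasma membrane contacts, had 6.89, 6.81, 6.96 and 6.61 against 7.69, 7.72, 7.74 and 7.55 at 1 probe (−0.86 ± 0.09) and 0.10 ± 0.08 at the other, 995 bases away. The genotypes overlapped at the latter and not at the former. 4930581F22Rik, a long noncoding RNA, had −0.94 ± 0.10 at the called probe, which was well above background on 2 of 4 α-Gal A(-/0) arrays, and 0.15 ± 0.10 at a second. Of 52 names with several tested probes, 21 had all probes on the same side of 0 (40.4%, against 56.5% of 7084 names over the array), and the median range between probes was 0.23 (0.13 over the array). Of the 7 with a called probe, Clmp was the one with all probes called (13 of 112 such names over the array).

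**Figure D5:**
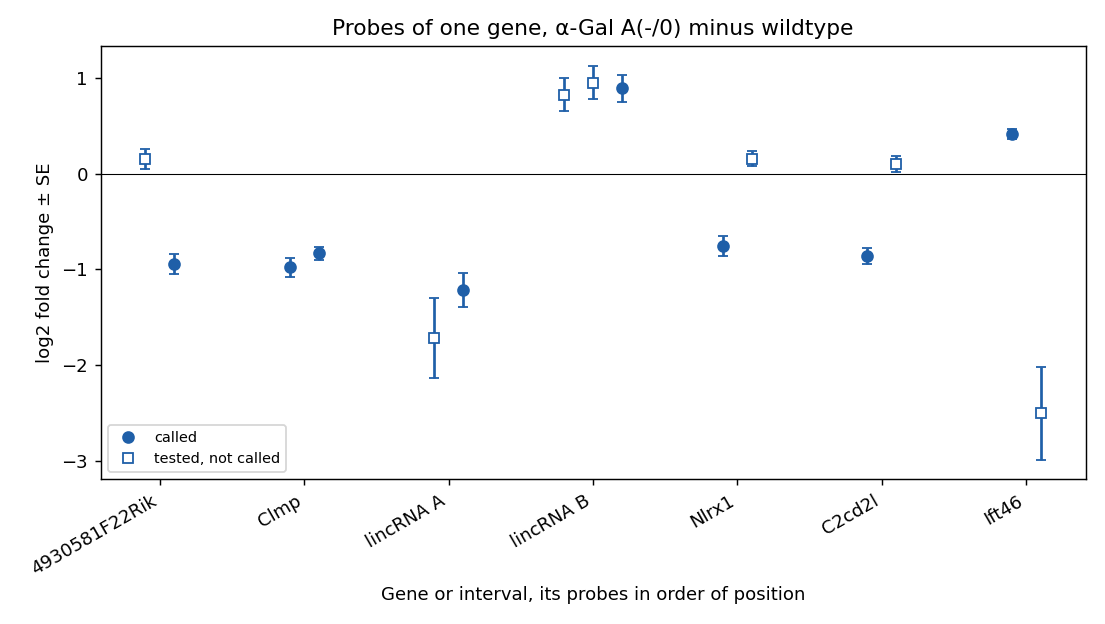
Log2 fold change ± SE of the tested probes of the 7 names with several tested probes and at least 1 call, in order of position (filled circles, called; open squares, not called). Clmp, lincRNA A and lincRNA B keep 1 direction over their probes, and the other 4 names have probes on both sides of 0.

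Between Ubash3b and Sorl1 most tested probes were those of lincRNA intervals. In the RefSeq annotation of mouse (GRCm38.p6) the genes between these neighbors include Mir100hg (the host transcript of a microRNA cluster, listed on the array as 2610203C20Rik), Mir100, Mirlet7a-2 and Mir125b-1. Of 18 tested lincRNA probes of 9 intervals from 41 to 41.5 Mb, 9 met the study's criterion and 11 had non-overlapping genotypes, 8 changes being above 0 and 10 below it. On α-Gal A(-/0) replicate 2, each of the lower probes past the criterion was under 5.49, the lowest signal well above background there. Those lower probes thus passed the filter through the wildtype arrays, which limits these counts. The higher probes past the criterion included all 3 of lincRNA B. Of the 35 lincRNA probes elsewhere in the stretch 3 met the criterion. LincRNA B was higher at all 3 of its probes. The called one gave 9.19, 8.77, 9.09 and 8.85 in α-Gal A(-/0) mice and 8.21, 8.36, 7.83 and 7.93 in wildtype mice (0.89 ± 0.14, SE), and the others had 0.82 ± 0.17 and 0.95 ± 0.18. The called probe of lincRNA A had 4.35, 4.10, 4.05 and 4.87 against 5.63, 5.69, 5.32 and 5.59 (−1.22 ± 0.18), with 1 of 4 α-Gal A(-/0) arrays well above background. Its adjacent probe was not well above background on any α-Gal A(-/0) array and was at least 1.68-fold lower there without being called, the bound being set by the lowest signal well above background on each array.

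In the same interval of chromosome 9, chr9:41300137-41301556_F and chr9:41408354-41420812_F were chosen for mention after their values were seen. The first had 0.49 ± 0.12 at 1 probe and was not well above background on any α-Gal A(-/0) array at another, 254 bases away, where the wildtype arrays all were. The second had −0.67 ± 0.19 and −0.85 ± 0.22 at its 2 probes, the nearer of them 4850 bases from a lincRNA B probe, where the signal was higher. 2610203C20Rik itself had 0.00 ± 0.16.

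Of the 30 tested probes with no RefSeq match other than lincRNA intervals and olfactory receptors, 2 were called. A_55_P2073134, 4194 bases from the Arhgef12 probe, had 6.32, 6.40, 6.33 and 6.33 in α-Gal A(-/0) mice and 7.24, 7.34, 7.29 and 7.18 in wildtype mice, a difference of −0.92 ± 0.06 (SE) that was called under all 17 alternative settings. Arhgef12, a guanine nucleotide exchange factor, had −0.23 ± 0.06 and was not called. TC1624885 had 3.50, 2.18, 2.11 and 2.14 in α-Gal A(-/0) mice, well above background on none of these arrays, and 4.12, 4.72, 4.44 and 4.60 in wildtype mice. No fold is given for it, because the lowest measurable signals of the α-Gal A(-/0) arrays average as high as the wildtype mean.

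The remaining called genes have varied roles. 4931429I11Rik, now named Jhy in RefSeq, had 6.33, 6.27, 6.40 and 6.39 in α-Gal A(-/0) mice and 5.19, 5.54, 5.49 and 5.40 in wildtype mice (0.94 ± 0.08, SE). Bcl9l, a coactivator of β-catenin, had 7.47, 7.15, 7.21 and 6.98 against 7.80, 8.19, 8.01 and 7.94 (−0.78 ± 0.12, SE). Tmprss4, a transmembrane serine protease, had 5.02, 5.15, 4.16 and 4.67 against 6.00, 5.99, 6.22 and 5.98 (−1.30 ± 0.20, SE), with 3 of 4 α-Gal A(-/0) arrays well above background. Again no α-Gal A(-/0) mouse lay within the wildtype range for any of these 3.

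Several groups of genes had no called probe, which says little at their size, as 0.885% of tested probes were called over the array. These were ion channels and transmitter receptors (7 tested probes, median −0.06), ubiquitin ligases and related proteins (12, −0.01), RNA processing and decay (9, 0.00), DNA damage response and cell division (10, −0.05), the apolipoproteins of the Apoa1 cluster (3, 0.00) and the olfactory receptors (7, −0.05). Proteases and their processing targets had 9 tested probes with Tmprss4 alone called, and Bace1 had −0.15 ± 0.06. Transcription factors and chromatin proteins had 16 with Bcl9l alone called, and Fli1 (−0.29 ± 0.09) and Zbtb16 (−0.27 ± 0.08) were past the study's criterion. Mitochondrial proteins had 8 tested probes with Nlrx1 alone called. Dcps, the scavenger decapping enzyme of mRNA decay, met the criterion at 0.38 ± 0.08, and the ubiquitin ligase Cbl at −0.44 ± 0.11. Il10ra, the single tested cytokine receptor, had −0.12 ± 0.14.

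Drd2 had 7.97, 8.33, 8.10 and 6.64 in α-Gal A(-/0) mice and 6.13, 7.51, 7.02 and 7.27 in wildtype mice, so that the genotypes overlapped (0.77 ± 0.42, SE). The mean log2 signal of 10 striatal markers, a list that holds Drd2 itself, ranged from 11.68 to 13.26 in α-Gal A(-/0) mice and from 11.36 to 12.67 in wildtype mice, and all 10 passed the filter on signal (exact permutation test over the mice, two-sided, p = 0.23, adjusted p = 0.42 over 11 marker lists). Their part in the Drd2 values was not tested. Of the 11 lists the microglial one had the lowest p, with 11.61 to 11.82 in α-Gal A(-/0) mice and 11.95 to 12.15 in wildtype mice (exact permutation p = 0.029, the smallest p that 4 against 4 mice allow, adjusted p = 0.24). In such bulk tissue fewer cells of a type and less RNA per cell cannot be told apart. Cd3d, a T cell gene, did not pass the filter on signal. The 5 excitatory and 5 inhibitory neuron markers of the labelled tissue all passed it.

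Some properties of the probes were not used in the selection. Of the 556 probes 279 lie on the minus and 277 on the plus strand. The median GC content of the tested probes was 45%, and 43.3% over the array. The median log2 signal was 8.38 and 8.67, and 48.6% of the probes were tested against 61.7% over the array. By accession, symbol or synonym 339 of the 556 probes matched RefSeq, all of them on chromosome 9. Of the 17 called probes 12 belong to protein-coding genes, 1 to a RefSeq noncoding RNA, 2 to lincRNA intervals and 2 to unnamed transcripts.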

How the data were processed

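RNA of 8 prefrontal cortex samples was read on one-color Agilent arrays. The authors scanned the arrays and extracted spots with Agilent Feature Extraction 10.7.3.1 (submitters' processing notes), and the deposited values used here are processed signal intensities, background-corrected by that software per the file headers. The deposited value table of the series was not used, since its columns do not follow their sample names. Coordinates (mm9) and gene names are those of the scanner files.

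Spots of a probe were averaged, log2 transformed and quantile normalized. Of 55681 non-control probes, 81 had an uneven spot, and 34339 passed the filter, which asked for a signal well above background in all 4 mice of a genotype. Genotypes were compared with limma 3.58.1 (R 4.3.3) in the order α-Gal A(-/0) minus wildtype, p-values being adjusted over every tested probe (Benjamini-Hochberg) with a threshold of 0.05. The fit was tested on simulated data. No spot was saturated. SE is limma's standard error, and precision is limited by the 4 arrays of a genotype.

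The members and all lists were chosen with earlier results of these data known. Named were called probes with non-overlapping genotypes (up to 15 per direction), other probes of those genes, the 3 or fewer lowest-p genes of each of 14 role lists (1 of them not reported here), and probes next to the limits. Alternatives were a 75th percentile shift, normexp with an offset of 50, other filters on signal, robust variances with an intensity trend, the Welch test of the study, blocks for replicate number and slide row, and each array left out in turn. Leaving out saturated probes also counts among the 17 settings. It repeats the main fit, because no spot was saturated, and could lose no call. Replicate numbers did not pair the mice.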

Additional observations from a re-analysis of the deposited data

Results flagged for a closer look

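Within a genotype of 4 mice, the highest or the lowest value was checked for a gap to its nearest neighbor that passes Dixon's limit for its share of the whole range. Of 114 groups of 57 probes named here 4 passed it, and chance alone passes about 1 in 20. For TC1624885, α-Gal A(-/0) replicate 1 had 3.50 where the next value was 2.18, all below the background limit. For Tmprss4, wildtype replicate 3 had 6.22 (next value 6.00). For Hyls1, a centriole protein, wildtype replicate 2 had 7.40 (next value 7.15). For Pafah1b2, a subunit of an acetylhydrolase, wildtype replicate 4 had 10.06 (next value 10.04).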

How the results depend on the processing

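Leaving out a single array could not reverse a called probe of the stretch, since the genotypes did not overlap at any of them. The methods' own test, the filters on signal and the robust variances use the same mean differences. The kept direction of the 17 called probes, under each of the 17 alternative settings in which they were run, is therefore little check on them. Their number was 6 with the methods' own test (2 higher and 4 lower, 23 past the study's criterion in place of 39, the first call at 40.592 Mb, runs of 0.546 Mb in all in place of 1.76 Mb). It was 11 with no filter on signal (3 higher, runs of 0.659 Mb), and 8 with the slide row of each array as a block (2 higher, 6 lower, runs of 0.659 Mb). Replicate numbers did not pair the mice, since the correlations of same-numbered deviations ran from −0.089 to 0.148, and with the replicate number as a block 8 probes were called (2 higher, 6 lower, first at 40.591 Mb, runs of 0.659 Mb). Probes called higher numbered 8 of 21 after normexp and 8 of 23 with an intensity trend and robust variances. With the filter on all 8 arrays 6 of 14 calls were higher (42.9% in place of 29.4%), the first at 40.591 Mb and the last at 44.602 Mb. With each array left out in turn, calls ranged from 9 (without wildtype replicate 4) to 16, those higher from 2 to 7, those lower from 7 to 12, and the length of the runs from 0.659 to 1.76 Mb (0.659 Mb without wildtype replicate 1 or 4). Of the 17 called probes, 9 to 13 were still called in these fits with an array left out. The runs came to 4.39 Mb with 2 Mb as joining distance, 3.35 Mb with the left-out genes and 5.22 Mb with the study's criterion. Changes near 0 reversed: Snx19 to 0.01 with the slide row, Apoa5 to 0.03 with the 75th percentile shift, 0.02 with normexp and −0.07 to 0.04 without single arrays, and Gm11149 to −0.11 to 0.03 without single arrays. The cause was not tested in any of these. Signals near background limit what is known of 4930581F22Rik, TC1624885, lincRNA A, the other lower lincRNA probes near it, Tmprss4 and the second Ift46 probe.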
